A study of Mus musculus with 656 samples.

Results

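The 35 genes described here encode proteins that copy DNA or govern the step from G1 into S phase of the cell cycle. They were chosen by name: a list of 35 mouse symbols was matched to the Ensembl identifiers of the count table, and all 35 were found among its 22070 genes. All 35 also passed the filter on low counts, which kept 10766 genes for testing. By role they comprise 6 subunits of the replicative helicase (Mcm2 to Mcm7), 8 genes of origin licensing and helicase activation, 10 genes of polymerases, clamp, clamp loader and strand maturation, 4 genes of deoxynucleotide supply, 3 G1/S regulators and 4 genes of chromatin and histone supply.

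The cells were mouse 3T3 fibroblasts, an established line grown in DMEM with bovine calf serum, and RNA was counted by TagSeq, which sequences the 3′ ends of polyadenylated transcripts. SC-514, which blocks IKKβ, was given 1 h ahead of the stimulus in doses of 0, 25, 50 or 100 µM. Stimulation was with IL-1β (1 ng/ml) in some groups and with TNF-α (10 ng/ml) in others, and cells were taken after 15, 30, 60, 120 or 360 min. A further group had neither stimulus nor inhibitor. The design text names the effect of IKKβ inhibition on transcription downstream of NF-κB as the question. Each of the 41 groups held 4 libraries. Column prefixes in the sample titles and descriptions disagree about the stimulus, so libraries are called here by their stimulus label. Separate cultures are not named in the labels, and the p-values therefore cover the spread of these libraries alone. There was no group with SC-514 alone and no unstimulated group at later times, and all comparisons with unstimulated cells share the same 4 libraries.

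Licensing loads the MCM helicase onto origins in G1 with the help of Cdc6 and Cdt1. Cyclin E with Cdk2, and the kinase Cdc7, then set it in motion through Cdc45 and the GINS complex. E2F transcription factors drive most of these genes as cells enter S phase, so that in a cycling culture their transcripts mark the share of cells near or in S phase as well as the level per cell. These bulk libraries cannot separate fewer cells in that phase from less RNA in each cell.

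Library totals ran from 928906 to 2469454 counts (median 1292522.5), apart from 2 shallow libraries of 3839 and 12191 counts in the 50 µM groups, which are left out of the means below. The 35 genes together drew a median of 3695 counts per library. A value of 3 counts equals 1.21 to 3.23 CPM, that is counts scaled to library size, the unit of every level below, and since the counts come from 3′ ends, levels are compared between groups and not between genes. The 8 fibroblast markers, among them Col1a2, Vim and Fn1, had counts in all 162 other libraries. The summed level of 14 markers of leukocytes, endothelium and epithelium was 9.59 to 55.7 CPM, with medians of 17.4 to 26.4 CPM across the sets of libraries. The median was 0 for 9 of the 14, among them Adgre1, Cd3e, Cdh5, Epcam and Krt5. Lyz2 and Pecam1 had counts in all 162 libraries, with medians of 6.31 and 4.12 CPM. Cd68 had counts in 161 (median 4.32 CPM), Csf1r in 160 (2.78 CPM) and Ptprc in 88 (0.64 CPM). The part of the 14 markers in the results was not tested. The highest sum lay in the set of IL-1β with 100 µM, where the median was 19.1 CPM. In that set, library number 1 at 360 min had counts for 15303 genes, the most of any library. The rest of its group had 13170 to 13529. Number 1 at 120 min had 14634, and the rest of that group 13198 to 13350. What sets these libraries apart was not tested. In the group at 30 min of IL-1β alone, the 35 genes took 0.387% of the counts of library number 4, the largest share in any library, and 0.262% to 0.292% in the other 3. Results that rest on that library are given with and without it. Mitochondrial transcripts took a median of 0.665% of counts in unstimulated libraries, 0.579% with IL-1β alone, 0.638% with TNF-α alone, and 0.682% and 0.667% with 100 µM SC-514 under the 2 labels.

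The libraries carry numbers 1 to 4 within each group, and in the sets labelled TNF-α many of the 35 genes followed that number, those of deoxynucleotide supply in most groups. Tk1, thymidine kinase, had medians of 57.8, 47.6, 88.8 and 83.2 CPM for numbers 1 to 4 over the 20 groups labelled TNF-α. Tyms, thymidylate synthase, had 157, 139, 192 and 197 CPM. In 19 of the 19 groups labelled TNF-α with 4 deep libraries, numbers 3 and 4 both lay above numbers 1 and 2 for Tk1, Tyms and Rrm1, the large subunit of ribonucleotide reductase, against 1, 0 and 1 of 19 groups labelled IL-1β. The same order held under TNF-α in 17 of 19 groups for Lig1 and in 16 of 19 for Rrm2, Pola1 and Rfc2. Across the 35 genes the highest number's median exceeded the lowest's by a factor with median 1.31 under TNF-α and 1.16 under IL-1β. Slbp had the smallest such factor under both labels, 1.06 and 1.03. The labels do not say what the number stands for.

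Promoter windows from RefSeq (GRCm38.p6, from 250 bases before to 50 bases after a start site, read on the strand of the gene) were matched for 28 of the 35 genes. The windows of 4 genes that the results turn on are printed: the 3 that fell late under IL-1β and Slbp, which rose most regularly with SC-514. Capitals mark 2 motifs on either strand: an E2F site, spelled TTTCCCGC, TTTCGCGC, TTTGCCGC or TTTGGCGC, and the CCAAT box.

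Mcm6: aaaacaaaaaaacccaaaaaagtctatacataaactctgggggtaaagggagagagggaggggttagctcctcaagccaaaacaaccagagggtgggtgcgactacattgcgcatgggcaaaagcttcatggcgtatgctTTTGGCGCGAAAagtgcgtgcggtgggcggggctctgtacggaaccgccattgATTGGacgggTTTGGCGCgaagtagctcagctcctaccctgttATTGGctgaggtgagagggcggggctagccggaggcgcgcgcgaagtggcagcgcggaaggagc
Ccne1: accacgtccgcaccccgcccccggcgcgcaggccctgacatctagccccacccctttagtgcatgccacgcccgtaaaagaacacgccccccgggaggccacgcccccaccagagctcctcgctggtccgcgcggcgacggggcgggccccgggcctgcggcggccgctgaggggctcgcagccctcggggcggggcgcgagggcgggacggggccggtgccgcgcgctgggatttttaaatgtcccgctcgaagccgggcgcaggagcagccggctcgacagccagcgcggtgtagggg
Rfc1: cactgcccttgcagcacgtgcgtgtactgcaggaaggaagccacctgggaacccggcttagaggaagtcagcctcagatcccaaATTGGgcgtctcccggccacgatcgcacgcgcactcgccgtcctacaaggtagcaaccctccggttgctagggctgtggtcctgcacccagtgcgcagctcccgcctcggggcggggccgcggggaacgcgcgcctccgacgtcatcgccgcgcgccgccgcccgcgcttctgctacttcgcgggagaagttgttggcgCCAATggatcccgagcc
Slbp: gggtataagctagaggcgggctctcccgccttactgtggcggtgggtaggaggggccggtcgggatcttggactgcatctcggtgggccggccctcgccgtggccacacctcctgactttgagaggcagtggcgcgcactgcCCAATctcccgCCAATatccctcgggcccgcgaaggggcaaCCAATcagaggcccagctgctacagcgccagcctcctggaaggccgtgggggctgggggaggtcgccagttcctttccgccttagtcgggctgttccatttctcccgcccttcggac

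The Mcm6 window (chr1:128359656-128359955, minus strand) held 3 E2F spellings and 2 CCAAT boxes. Those of Ccne1 (chr7:38107441-38107740, minus strand), Rfc1 (chr5:65335590-65335889, minus strand) and Slbp (chr5:33652525-33652824, minus strand) held 0 E2F spellings, with 0, 2 and 3 CCAAT boxes. Of the 33 windows of the 35 genes, several genes having more than 1 start site, 33.3% held an E2F spelling and 57.6% a CCAAT box, against 2.26% and 37.4% of all 32851 windows. The GC box GGGCGG stood in 75.8% of the 33 windows and 35.7% of all windows. The NF-κB spelling GGG, any 2 bases, then TTTCC was in 0 of the 33 windows and in 1.63% of all. A match is a description of the letters and does not show that a factor binds.

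With stimulus alone, 3 of the 35 genes passed the test against unstimulated libraries at any time. From 15 to 120 min of IL-1β, 0 of 35 passed an adjusted p of 0.05, where 0.167%, 0.957%, 3.36% and 12.5% of all genes tested did so at 15, 30, 60 and 120 min. Under TNF-α 0 of 35 passed at any of the 5 times, against 0.186%, 0.659%, 5.41%, 14.2% and 5.42% of all genes. Without adjustment, 2, 8, 1, 1 and 6 of the 35 were under 0.05 at the 5 times of IL-1β and 2, 0, 0, 2 and 1 at those of TNF-α. The median standard error of a log2 change was 0.161 to 0.172 over these 10 comparisons, and single genes reached 0.40 (120 min of TNF-α). Changes well above the median standard error also went uncalled, such as 0.54 at 30 min of IL-1β and -1.01 at 120 min of TNF-α. An absent call with 4 libraries therefore does not exclude changes of a single gene well above 1 standard error.

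The exception was 360 min of IL-1β, when 3 of 35 genes fell (21.7% of all genes tested changed there, and 9.4% of all genes fell). Mcm6, a helicase subunit (ENSMUSG00000026355.11, chr1:128331590-128359664, minus strand), stood at 146, 170.3, 156 and 138 CPM in the unstimulated libraries and at 80.4, 117, 102 and 100.3 CPM after 360 min of IL-1β. All 4 late libraries lay below all 4 unstimulated ones. The log2 change was -0.61 ± 0.16 (SE, adjusted p = 0.00162). At 360 min of TNF-α Mcm6 stood at 147, 152, 149 and 137 CPM, inside the unstimulated range but for its lowest library. In the same comparison 7 of the 8 fibroblast markers were lower with IL-1β, with a median log2 change of -0.30, and 0 of 8 passed with TNF-α, and the part of this in the result was not tested.

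Rfc1, the large subunit of the clamp loader (ENSMUSG00000029191.16, chr5:65261850-65335670, minus strand), was at 188, 187, 213 and 185 CPM without stimulus and at 154, 148, 183 and 151 CPM after 360 min of IL-1β. The groups did not overlap, and the log2 change was -0.28 ± 0.09 (adjusted p = 0.0138). Ccne1, which encodes cyclin E1 (ENSMUSG00000002068.16, chr7:38097984-38107534, minus strand), went from 42.6, 36.3, 33.7 and 49.2 CPM to 30.7, 23.9, 31 and 30.9 CPM. Again the late libraries were all lower, with a log2 change of -0.48 ± 0.18 (adjusted p = 0.0427). Without the libraries numbered 2, Mcm6 alone of the 3 passed, and the call of Ccne1 was also lost without those numbered 1 or 4.

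Compared over time within IL-1β, 2 of 35 genes were lower at 360 than at 15 min (15.2% of all genes changed, and 6.29% fell). These were Mcm6, at -0.61 ± 0.16 (adjusted p = 0.00194), and Ccne1, at -0.87 ± 0.17 (adjusted p = 2.84e-05). Ccne1 was higher at 15 min, with 48.1, 57.7, 58.2 and 49.7 CPM, than at any later time of IL-1β alone, where each group mean lay below the one before, down to 29.1 CPM. Under TNF-α 0 of 35 genes differed between 360 and 15 min, by edgeR, where 2.54% of all genes did and 2 of the 35 were under an unadjusted p of 0.05.

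A direct comparison of the labels at 360 min without SC-514 gave 3 of 35 genes lower with IL-1β than with TNF-α (9.46% of all genes differed, and 3.66% were lower). They were Mcm6 (-0.55 ± 0.16, adjusted p = 0.0123), Rfc1 (-0.28 ± 0.09, adjusted p = 0.0267) and E2f1 (-0.42 ± 0.14, adjusted p = 0.0394), the activating E2F factor, with all 4 IL-1β libraries lower in each case. Without the libraries numbered 1, 2, 3 or 4, between 0 and 2 of these calls were made, 0 without number 4. Of the 35 log2 differences 32 were negative, with a median of -0.21, beside -0.01 for all genes tested. Over the 5 times together, 0 of 35 genes differed between the labels in an F test, and 9.56% of all genes did. The 2 stimulus labels come with 2 sets of library columns, so that stimulus and set cannot be told apart.

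**Figure D1:**
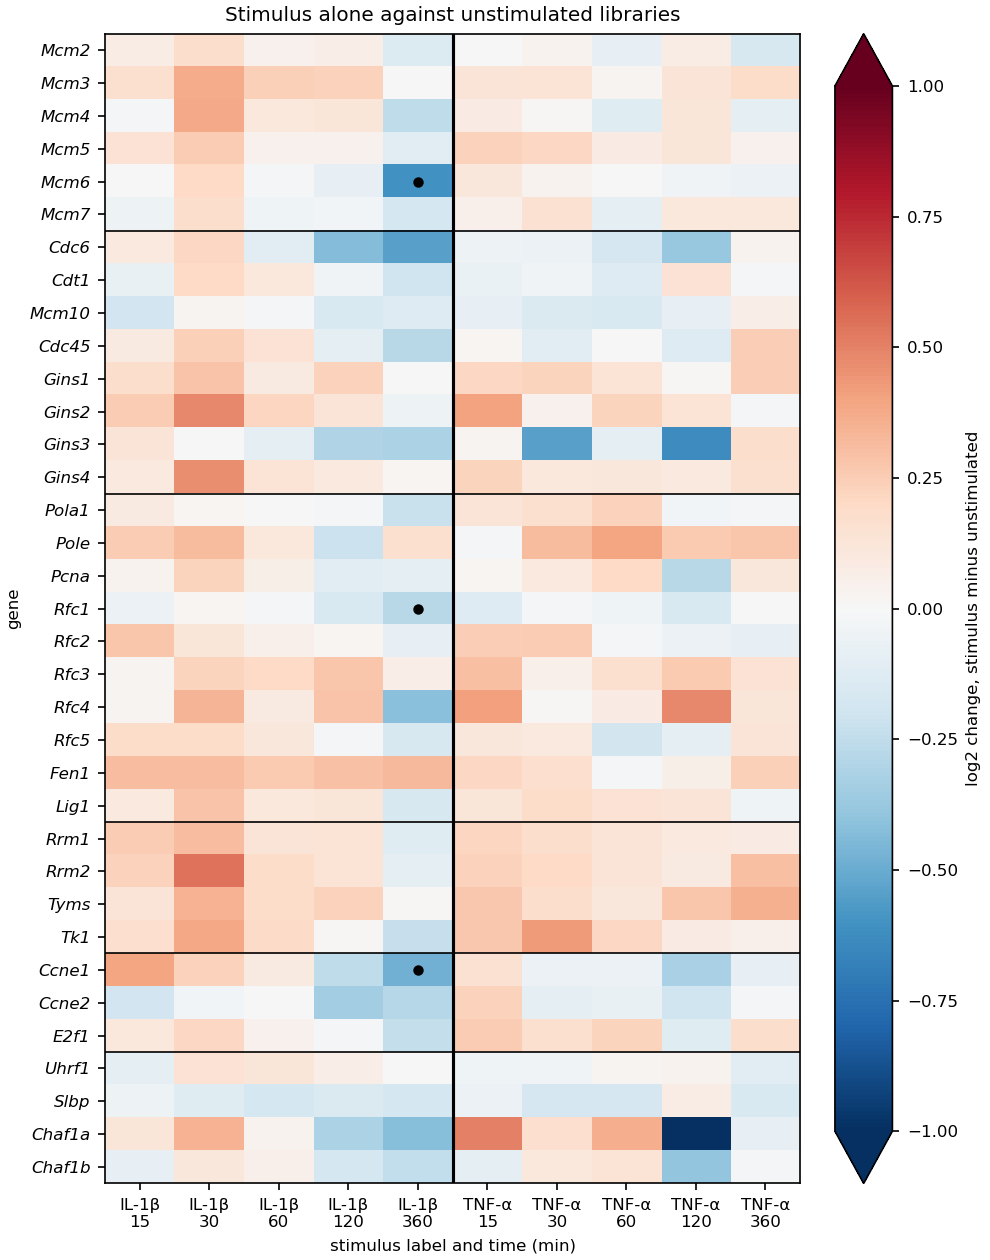
Log2 change of each of the 35 genes (rows, grouped by role between the horizontal lines) with stimulus alone against unstimulated libraries at each time (columns, min; IL-1β left, TNF-α right), 4 libraries per group; black dots mark an adjusted p under 0.05. Dots stand only in the column for 360 min of IL-1β, at Mcm6, Rfc1 and Ccne1.

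Group means over the 21 groups without SC-514 or with 100 µM are given for genes among the 11 that were followed in every group. Mcm5 ranged from 51.8 CPM (IL-1β alone, 360 min) to 74.1 CPM (IL-1β with 100 µM, 30 min). Mcm6 ranged from 100.0 CPM (IL-1β alone, 360 min) to 181 CPM (TNF-α with 100 µM, 15 min). Of these 11 genes, Mcm5, Mcm6, Ccne1, E2f1 and Slbp had their lowest mean at 360 min of IL-1β alone, while Cdc6, Rrm2, Tyms and Uhrf1 had theirs at 360 min of IL-1β with 100 µM. E2f1 ranged from 49.6 to 84.5 CPM (TNF-α with 100 µM, 15 min), and Ccne2 from 19.4 CPM (IL-1β with 100 µM, 60 min) to 37.0 CPM (TNF-α alone, 15 min). Tyms ranged from 136 to 189 CPM (TNF-α alone, 360 min). Uhrf1, which reads hemimethylated DNA, ranged from 109.5 to 164.3 CPM (IL-1β alone, 30 min), the group that holds the library with the largest share of these genes.

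With SC-514 at 100 µM, the genes parted in direction. Of 350 tests (35 genes, 10 combinations of label and time) 55 passed, 37 upward and 18 downward, that is 67.3% upward. Of the same tests over all genes 24.9% passed, and 43.5% of those calls were upward. With size factors by relative log expression (RLE) in place of TMM the split was 56 upward and 12 downward. The calls of all genes also moved upward: 50.2% to 68.7% of them rose per comparison with RLE, against 37.9% to 46.9% with TMM. The median log2 change of all genes at 360 min of TNF-α moved from 0.02 to 0.14. In fits without 1 library number 30 to 43 calls were made, and 30 to 38 of the 55 stayed. Of the 55, 17 stayed under every alternative tried: 7 of Slbp, 2 each of Rfc1 and Rfc2, and 1 each of Gins4, Cdt1, Rfc4, Ccne1, E2f1 and Chaf1a. Without library number 4 of IL-1β alone at 30 min, the 5 downward calls at 30 min of IL-1β were lost, those of Mcm4, Rfc3, Fen1, Rrm2 and Tyms, and the 7 calls there became 3. In all, 12 genes rose in at least 1 comparison, 10 fell in at least 1, and 0 did both, where 38.9%, 36.1% and 4.7% of all genes did so. The other 13 passed in none: Mcm3, Mcm5, Mcm6, Cdc6, Cdc45, Gins1, Gins3, Pola1, Pole, Pcna, Rfc5, Rrm1 and Tk1. Under IL-1β 5, 7, 5, 7 and 6 of 35 passed at 15, 30, 60, 120 and 360 min, where 24.8%, 22.5%, 25.9%, 30.4% and 29.5% of all genes did. Under TNF-α the counts were 6, 2, 5, 6 and 6 of 35, against 22.2%, 17.9%, 22%, 26.5% and 26.8%. At 360 min, 7 of 8 fibroblast markers fell with 100 µM under TNF-α (median log2 change -0.46) and 2 of 8 under IL-1β, and their part in the results was not tested.

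**Figure D2:**
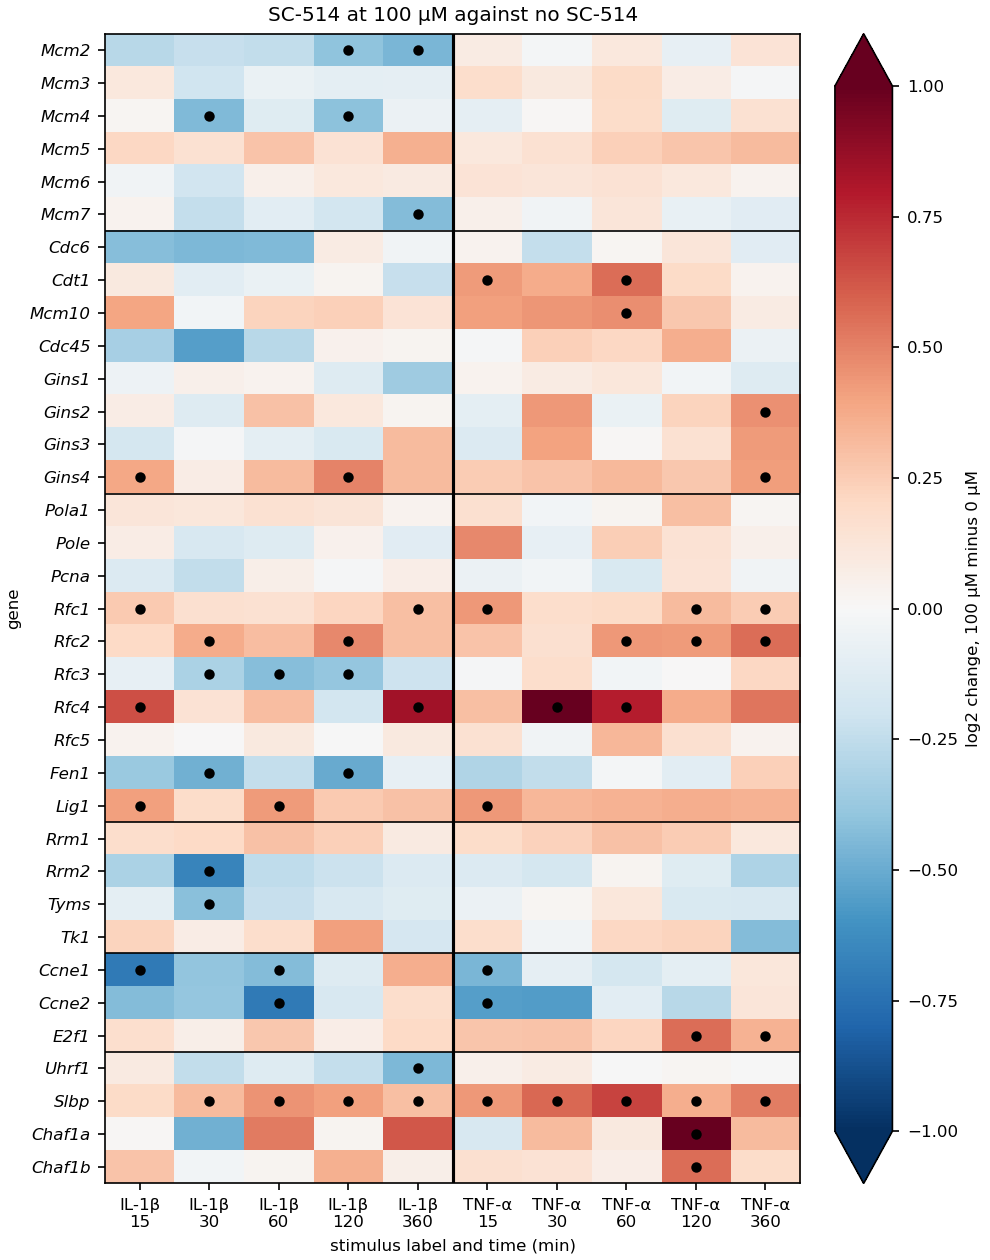
Log2 change of each of the 35 genes (rows, grouped by role) with SC-514 at 100 µM against 0 µM at each time (columns, min; IL-1β left, TNF-α right); black dots mark an adjusted p under 0.05, and the colour scale ends at 1 and -1. Slbp carries 9 dots, all upward, while the downward dots for Mcm2, Mcm4, Mcm7, Rfc3, Fen1 and Uhrf1 all stand under IL-1β.

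Among the helicase subunits, 3 of 6 fell with SC-514 in at least 1 comparison, all of these under the IL-1β label: Mcm2 at 120 and 360 min, Mcm4 at 30 and 120 min and Mcm7 at 360 min. Of all genes tested, 36.1% fell in at least 1 of the 10. Without library number 4 of IL-1β alone at 30 min the change of Mcm4 there was -0.29 (adjusted p = 0.1), beside -0.44 with it, and without the libraries numbered 3 that of Mcm2 at 120 min was -0.26 (adjusted p = 0.177), beside -0.40. The call of Mcm4 at 120 min was lost there too (adjusted p = 0.145). Mcm2 stood at 82.1, 89.9, 107 and 99.5 CPM after 360 min of IL-1β and at 44.4, 88.6, 71.5 and 71.9 CPM with 100 µM added. The ranges met, 1 treated library at 88.6 CPM lying above the lowest untreated one, and the log2 change was -0.45 ± 0.14 (adjusted p = 0.00666). The lowest library, at 44.4 CPM, was number 1, and without number 1 of IL-1β with 100 µM at 120 and 360 min the change was -0.29 (adjusted p = 0.147). Under TNF-α Mcm2 was at 102, 82.6, 90.3 and 96.4 CPM without and at 97.2, 105, 102 and 106 CPM with the inhibitor. The difference between the labels in the response of Mcm2 over the 5 times was itself past the threshold, with a mean log2 difference of -0.37 (F test, adjusted p = 0.0189), and this call was lost without the libraries numbered 1, 3 or 4 (adjusted p = 0.0702, 0.314 and 0.269).

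Mcm7 went from 159, 178, 195 and 186 CPM to 111, 146, 135 and 142 CPM at 360 min of IL-1β, without overlap (-0.43 ± 0.14, adjusted p = 0.0109). Without number 1 of the treated group the change was -0.35 (adjusted p = 0.0831). Its 3′ end overlaps 2 microRNA genes on its strand and Cops6 on the other, and whether the counting used strand is not given in the sources used here. Mcm5 did not share this direction. Its log2 change was positive in 10 of 10 comparisons, from 0.11 to 0.36, without passing in any, and its mean over the 10 was 0.22 ± 0.05 (adjusted p = 8.69e-05). Mcm6, which fell late under IL-1β, showed a mean change of 0.06 with 100 µM and passed at no time. After 360 min of IL-1β with 100 µM it was at 73.1, 109.7, 131 and 112 CPM, which overlaps the range without the inhibitor. With 25 and 50 µM the log2 change of Mcm6 at that time was 0.51 and 0.51. The F tests of Mcm6 over the 5 times did not pass at these concentrations (adjusted p = 0.0852 and 0.0936).

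**Figure D3:**
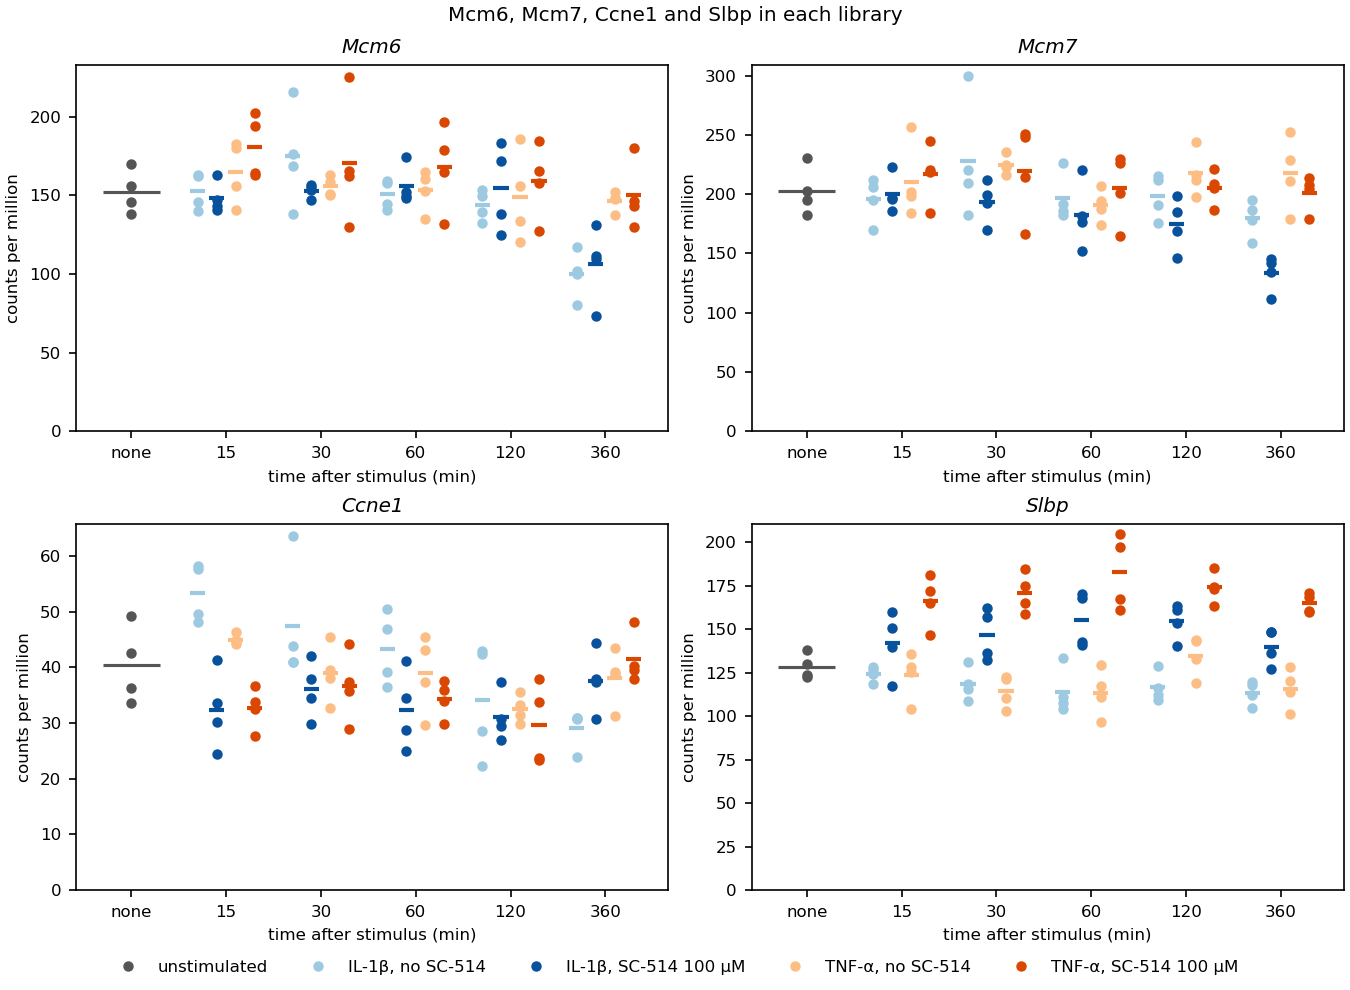
Levels in CPM of Mcm6, Mcm7, Ccne1 and Slbp in each library (points) against time after stimulus (min), with group means as short lines; grey is unstimulated, pale and dark blue are IL-1β with 0 and 100 µM SC-514, pale and dark orange are TNF-α with 0 and 100 µM. Mcm6 is low at 360 min of IL-1β with 0 and 100 µM SC-514, Mcm7 is lowest there with 100 µM, and Slbp lies higher in the dark points than in the pale ones. Groups with 25 and 50 µM are not drawn.

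In licensing and helicase activation, 4 of 8 genes rose in at least 1 comparison, as 38.9% of all genes did, and 0 fell. Gins4, a subunit of the GINS complex, rose at 15 and 120 min of IL-1β and 360 min of TNF-α. At 120 min of IL-1β it stood at 46.8, 45.1, 53.3 and 46.4 CPM without and at 65.3, 62, 73.4 and 70.5 CPM with 100 µM. All treated libraries were higher (0.50 ± 0.15, adjusted p = 0.00522). Cdt1, which loads the helicase, rose under TNF-α at 15 and 60 min. Its libraries at 15 min were at 43.4, 55.9, 58 and 45 CPM without and at 59.8, 73.7, 69.6 and 69.3 CPM with the inhibitor, and they did not overlap (0.43 ± 0.16, adjusted p = 0.0363). The 3′ end of Cdt1 overlaps the gene model Gm20388 on its own strand. Mcm10 rose at 60 min of TNF-α (0.47 ± 0.17, adjusted p = 0.0386) and Gins2 at 360 min (0.46 ± 0.17, adjusted p = 0.0297). The call of Mcm10 was lost without the libraries numbered 1, 3 or 4, that of Gins2 without those numbered 1 (0.30, adjusted p = 0.248) or 3, and that of Cdt1 at 15 min without those numbered 1, 2 or 4. The calls of Gins4 at 15 min of IL-1β and 360 min of TNF-α were lost in 4 and 3 of the 4 fits without 1 library number. Cdc6, the loading ATPase, had group means from 17.3 CPM (IL-1β with 100 µM, 360 min) to 29.7 CPM (IL-1β alone, 30 min), and its change at 100 µM passed at no time.

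The clamp loader was split. Of its 5 subunits Rfc1, Rfc2 and Rfc4 rose in 5, 5 and 4 of the 10 comparisons, Rfc3 fell in 3, all under IL-1β, and Rfc5 passed in 0. Of all genes tested, 38.9% rose and 36.1% fell in at least 1 of the 10, so a split among 5 genes is not particular to the clamp loader. Rfc1 at 15 min of TNF-α was at 178, 165, 189 and 176 CPM without and at 232, 241, 269.7 and 214 CPM with 100 µM. These groups stood apart (0.44 ± 0.09, adjusted p = 2.25e-05), and its change was positive at all 10 points. At 360 min of IL-1β, where Rfc1 had fallen, the libraries with 100 µM were at 189, 195, 203 and 198 CPM, all above those without and all within the range of the unstimulated ones (0.30 ± 0.09, adjusted p = 0.00609). That call was lost without the libraries numbered 2 or 4.

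Rfc2 at 360 min of TNF-α was at 43.5, 44.3, 49.5 and 54.4 CPM without and at 59.5, 68.7, 77.6 and 76.4 CPM with the inhibitor. The groups did not overlap (0.56 ± 0.14, adjusted p = 0.00119). Rfc4 had the largest change of a clamp loader gene, at 30 min of TNF-α, from 14, 11, 14.2 and 19 CPM to 27.5, 24.4, 29.4 and 37.7 CPM. All treated libraries were higher (1.01 ± 0.24, adjusted p = 0.000839). The 3′ ends of Rfc2 and Rfc4 overlap Lat2 and Eif4a2 on the other strand, so that reads of those genes cannot be told apart where strand was not used.

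The call of Rfc2 at 30 min of IL-1β was lost without the libraries numbered 2 (0.17, adjusted p = 0.56), beside 0.37 with them.

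Rfc3 moved the other way. At 120 min of IL-1β it was at 138, 141, 146 and 163.7 CPM without and at 109, 111, 115 and 115 CPM with 100 µM, without overlap (-0.39 ± 0.11, adjusted p = 0.00421). At 120 min of TNF-α it was at 139, 142, 163 and 137 CPM without and at 149, 139.6, 155 and 139.5 CPM with the inhibitor, and those ranges overlapped. Its 3 calls were lost without the libraries numbered 4, and at 30 min of IL-1β also without only library number 4 of IL-1β alone (-0.23, adjusted p = 0.184). Its response differed between the labels over the 5 times, with a mean log2 difference of -0.36 (F test, adjusted p = 0.00183), and without the libraries numbered 4 the adjusted p was 0.288. Mcm2 and Rfc3 were the 2 of 35 genes with such a difference, which 4.68% of all genes showed.

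For strand maturation, the ligase and the flap nuclease took opposite directions. Lig1, DNA ligase 1, rose at 15 and 60 min of IL-1β and 15 min of TNF-α, and its change was positive at all 10 points. At 60 min of IL-1β it stood at 152, 159, 174 and 131 CPM without and at 185, 244, 197 and 205 CPM with 100 µM, with no overlap (0.43 ± 0.15, adjusted p = 0.0247). Fen1, the flap endonuclease, fell at 30 and 120 min of IL-1β (-0.48 ± 0.16, adjusted p = 0.0184, and -0.50 ± 0.16, adjusted p = 0.0121). Neither call of Fen1 held in all fits: without library number 4 of IL-1β alone at 30 min the first change was -0.25 (adjusted p = 0.334), without all libraries numbered 4 it was -0.15 (adjusted p = 0.662), and without those numbered 3 the second was -0.29 (adjusted p = 0.247). The 3 calls of Lig1 were lost in 4, 3 and 2 of the 4 fits without 1 library number, with values of 0.34 to 0.48. Pcna, the sliding clamp, had group means between 64 CPM (TNF-α alone, 120 min) and 89.1 CPM (IL-1β alone, 30 min, with the library named above), with SDs up to 18.5 CPM, and passed in 0 of the 10 comparisons. Its change averaged -0.04 ± 0.05 over them. Pcna and Tyms have processed copies in the annotation (Pcna-ps1, Pcna-ps2 and Tyms-ps), among which the counting could split reads.

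In deoxynucleotide supply, Rrm2, the small and cell-cycle-regulated subunit of ribonucleotide reductase, fell at 30 min of IL-1β. It was at 63.6, 70.9, 63.5 and 75.7 CPM without and at 46.7, 46.3, 37.9 and 41.8 CPM with 100 µM. No treated library reached an untreated one (-0.66 ± 0.24, adjusted p = 0.0383). The 4 untreated libraries were the highest group mean of Rrm2 among the 21 groups without or with 100 µM, at 68.4 CPM. Tyms fell in the same comparison (-0.42 ± 0.16, adjusted p = 0.046), also without overlap. Without library number 4 of IL-1β alone at 30 min, the changes were -0.61 for Rrm2 (adjusted p = 0.0965) and -0.33 for Tyms (adjusted p = 0.198). Both calls were also lost with RLE factors and with DESeq2, that of Rrm2 without any 1 of the 4 library numbers, and that of Tyms without numbers 1, 3 or 4, down to -0.28 without number 4 (adjusted p = 0.372). Rrm1, the large reductase subunit, had positive changes at all 10 points, none past the threshold, and a mean of 0.21 ± 0.05 (adjusted p = 0.000269).

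Among the G1/S regulators, both cyclin E genes fell at 15 or 60 min and E2f1 rose at 120 and 360 min. Ccne1 stood at 48.1, 57.7, 58.2 and 49.7 CPM at 15 min of IL-1β and at 33.6, 24.4, 30.2 and 41.4 CPM with 100 µM. Every treated library was lower (-0.71 ± 0.17, adjusted p = 0.000404). It fell also at 60 min of IL-1β and 15 min of TNF-α (-0.44 ± 0.17, adjusted p = 0.0441, and -0.45 ± 0.17, adjusted p = 0.0369). The call at 15 min of IL-1β stayed under every alternative tried. The other 2 were lost without any 1 of the 4 library numbers, with RLE factors, with DESeq2 and without the filter on low counts, at values of -0.37 to -0.50. At 360 min of IL-1β the order had turned: the libraries with 100 µM were at 37.4, 30.7, 37.8 and 44.5 CPM, beside 30.7, 23.9, 31 and 30.9 CPM without, a change of 0.37 that did not pass.

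Ccne2, cyclin E2, was at 26, 27.5, 38.6 and 33.7 CPM at 60 min of IL-1β and at 15.1, 19.3, 17.7 and 25.5 CPM with the inhibitor, all lower (-0.71 ± 0.21, adjusted p = 0.00719). It fell as well at 15 min of TNF-α (-0.55 ± 0.20, adjusted p = 0.0292). The first call was lost without the libraries numbered 3 (-0.55, adjusted p = 0.0907) and the second without those numbered 2, 3 or 4, with RLE factors and with DESeq2. E2f1 had positive changes at all 10 points and rose at 120 and 360 min of TNF-α. At 120 min it went from 51, 53, 60.5 and 51.9 CPM to 81, 80.3, 87.3 and 69.8 CPM, without overlap (0.56 ± 0.13, adjusted p = 0.0002). The call of E2f1 at 360 min was lost without the libraries numbered 2 or 4.

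After the data were seen, the change at 360 min was set against the mean change at the 4 earlier times, over both labels. The libraries are those in which the turn was seen. The p-values therefore describe the turn in the cyclins and are no separate test of it. The difference passed for Ccne1 (0.55 ± 0.14, adjusted p = 0.00121), Ccne2 (0.54 ± 0.16, adjusted p = 0.0072) and Fen1 (0.36 ± 0.12, adjusted p = 0.0179), all upward. These were 3 of 35 genes, where 22.8% of all genes passed, and 11.2% of all genes did so upward. The call of Fen1 was lost without the libraries numbered 3 or 4, and its value went down to 0.23 among the alternatives. The calls of Ccne1 and Ccne2 stayed under every alternative tried.

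Slbp, which encodes the protein that binds the stem-loop of histone mRNAs (ENSMUSG00000004642.13, chr5:33634952-33652574, minus strand), gave the most regular response. It rose in 9 of 10 comparisons at 100 µM, and in these 9 all 4 treated libraries lay above all 4 untreated ones. At 60 min of TNF-α it stood at 129, 117, 96.7 and 111 CPM without and at 205, 161, 198 and 168 CPM with 100 µM. The log2 change there was 0.68 ± 0.08 (adjusted p = 1.46e-11), the largest of the 10. The exception was 15 min of IL-1β, with 119, 128, 124 and 127 CPM without and 151, 160.0, 117 and 139.6 CPM with the inhibitor, where 1 treated library lay below all untreated ones. Of the 9 calls, that at 30 min of IL-1β was lost without the libraries numbered 2, and that at 360 min of IL-1β without those numbered 2 or 4.

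Stimulus alone left Slbp between group means of 113 and 135 CPM, beside 129 CPM unstimulated, and its change passed in 0 of 10 comparisons with unstimulated libraries. With 100 µM the group means were 140.1 to 156 CPM under IL-1β and 165 to 183 CPM under TNF-α. Of the other chromatin genes, Chaf1a and Chaf1b, subunits of the assembly factor CAF-1, passed in 1 comparison each, at 120 min of TNF-α, and rose there. Chaf1a was at 6, 6.23, 5.12 and 1.82 CPM without and at 9.52, 8.39, 18.5 and 15.1 CPM with 100 µM (1.46 ± 0.36, adjusted p = 0.000629). The value of 1.82 CPM lies within the 1.21 to 3.23 CPM that 3 counts equal, so it is limited by depth. The untreated group was the lowest of the 21 for this gene, and its 3′ end overlaps Ubxn6 on the other strand. Uhrf1, which guides maintenance of DNA methylation, fell at 360 min of IL-1β, from 133, 153, 152 and 158 CPM to 100.0, 118, 90.8 and 129 CPM, without overlap (-0.45 ± 0.14, adjusted p = 0.00885). The call of Uhrf1 was lost with DESeq2 and without the libraries numbered 3, and that of Chaf1b without those numbered 2, 3 or 4.

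The lower concentrations were tested over the 5 times together. In F tests over the 5 times, 25 µM passed for 4 of 35 genes under IL-1β (28.7% of all genes) and 7 under TNF-α (23.8%), and 50 µM for 9 (40%) and 10 (35.9%). Rfc1, Lig1 and Ccne1 passed in all 4 of these tests, Rfc1 and Lig1 upward and Ccne1 downward by their means over the times. Under IL-1β the mean of Ccne1 joins changes of both signs. At 25 and 50 µM it changed by -0.85 and -0.87 at 15 min, and by 0.41 and 0.54 at 360 min. The calls of Rfc1, Lig1 and Ccne1 at 50 µM under IL-1β stayed under every alternative tried. At 25 µM under TNF-α the call of Rfc1 was lost without the libraries numbered 2, 3 or 4. There Lig1 was lost without those numbered 1, 3 or 4, and Ccne1 without 2 or 3. Lig1 was also lost at 50 µM under TNF-α without 1, 3 or 4, and at 25 µM under IL-1β without 1 or 2. Without those numbered 2, Rfc1 at 25 µM under IL-1β and Ccne1 at 50 µM under TNF-α were lost too. Averaged over both labels and the 5 times, 13, 19 and 23 of 35 genes passed at 25, 50 and 100 µM (7, 13 and 14 upward), where 47.1%, 56.3% and 66.4% of all genes did, and 24.2%, 28.8% and 35.2% did so upward. The count of the 35 grew with concentration, and so did that of all genes. In these means 11 genes passed at all 3 concentrations: Gins4, Rfc1, Rfc2, Rfc4, Lig1, Rrm1 and Slbp upward, and Fen1, Rrm2, Ccne1 and Ccne2 downward. The calls of Rfc4, Rrm1, Rrm2 and Slbp at 25 µM were lost in at least 1 fit without 1 library number. That of Rrm2 was lost in such fits at 50 µM too, and with RLE factors at 100 µM.

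The shapes differed among the genes. Slbp rose by 0.08 ± 0.03, 0.16 ± 0.03 and 0.42 ± 0.03 at 25, 50 and 100 µM (adjusted p = 0.0152, 3.91e-07 and 2.96e-33). Rfc2 and Rfc4 also rose in the order of the concentrations, to 0.35 ± 0.05 and 0.48 ± 0.08 at 100 µM. Lig1, Rfc1 and Rrm2 had nearly their full change at 25 or 50 µM, Lig1 with 0.27, 0.34 and 0.34. Averaged over the labels and times, Ccne1 was lowered more at 25 µM (-0.32) than at 100 µM (-0.20). Its change at 360 min of IL-1β was positive at each concentration. Cdc6 went from -0.43 ± 0.09 at 25 µM (adjusted p = 5.2e-05) to -0.15 ± 0.09 at 100 µM (adjusted p = 0.146), and E2f1 from -0.01 to 0.25. Differences between concentrations were not tested for single genes. Of the 35 genes 14 had means that were higher at each higher concentration and 6 means that were lower at each. This order compares 25, 50 and 100 µM with each other and does not mean a rise or fall against 0 µM. Among the 14, Ccne1, Cdc6 and Cdc45 lay in these means below their level at 0 µM at every concentration. The share of all genes with either order was not tested, so these counts have no background.

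**Figure D4:**
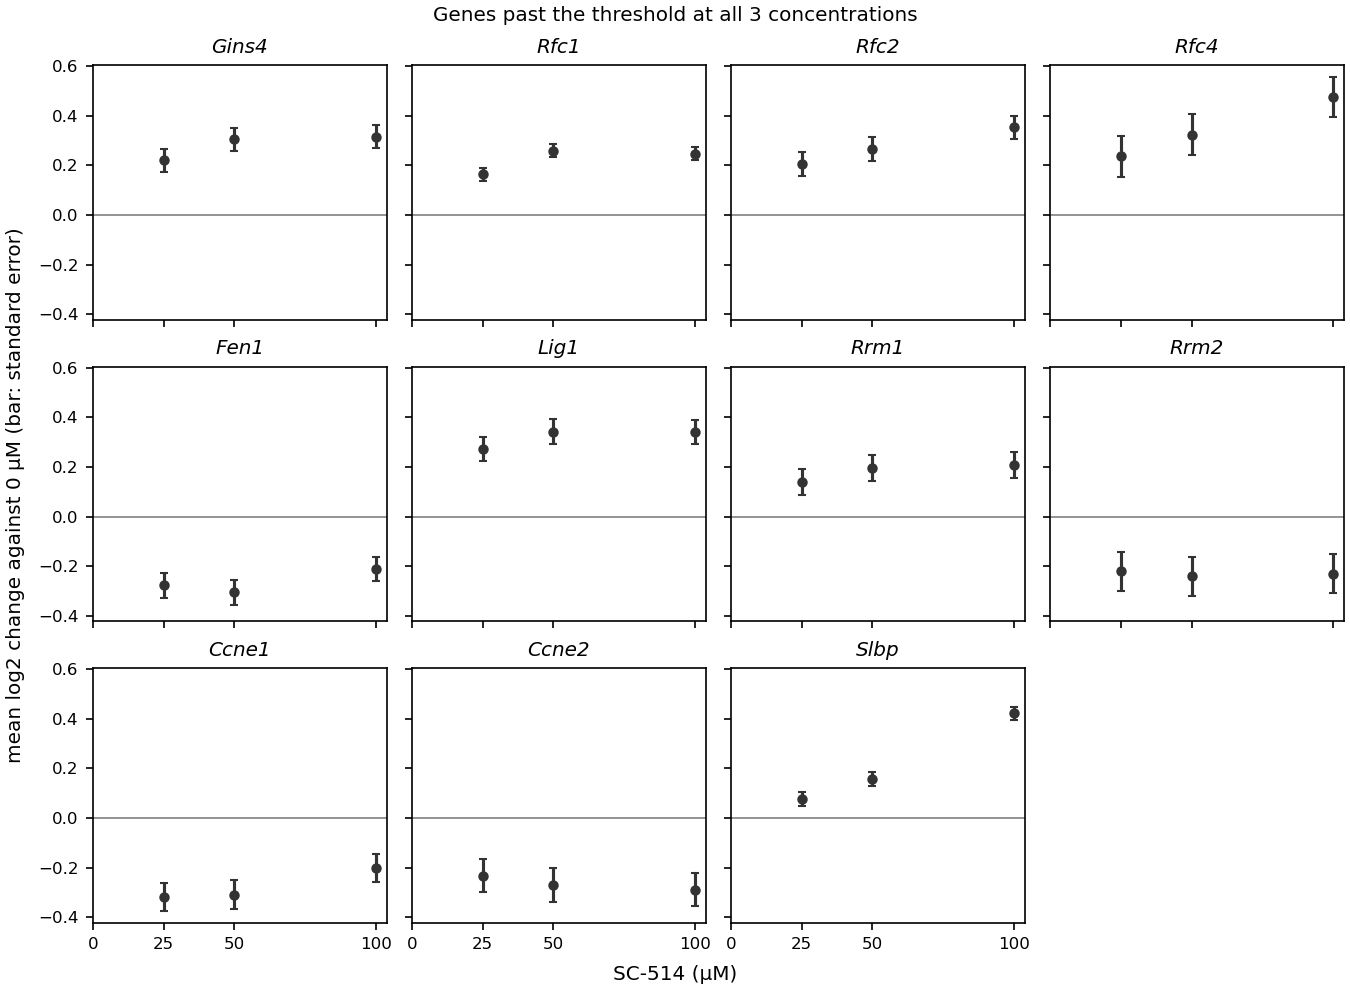
Mean log2 change against 0 µM over the 10 combinations of label and time (points, with standard errors as bars) at 25, 50 and 100 µM SC-514, for the 11 genes past the threshold at all 3 concentrations. Slbp climbs to 0.42 at 100 µM, Lig1 is level from 50 µM, and Ccne1 is lowest at 25 µM.

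The late and early samples of IL-1β were also compared with 100 µM present. From 15 to 360 min, 10 of 35 genes fell and 0 rose, where 29.8% of all genes changed, 13.8% downward and 16.1% upward. They were Mcm2, Mcm3, Mcm4, Mcm6, Mcm7, Cdt1, Lig1, Rrm1, Tk1 and Uhrf1, with log2 changes of -0.32 to -0.79. Mcm7 had 197, 223, 196 and 186 CPM at 15 min and 111, 146, 135 and 142 CPM at 360 min (-0.59 ± 0.13, adjusted p = 0.000263). Tk1 had 73.7, 95.2, 71.7 and 68.7 CPM at 15 min and 40.9, 47.4, 41.2 and 49.2 CPM at 360 min (-0.79 ± 0.25, adjusted p = 0.0111). Neither gene's groups overlapped. The count rested on the libraries numbered 1: without number 1 in all groups 1 of the 10 calls was made, that of Mcm7, and without number 1 of IL-1β with 100 µM at 120 and 360 min 3 were made.

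Under TNF-α with 100 µM, 2 of 35 genes changed from 15 to 360 min, where 20.4% of all genes did. Tk1 fell (-0.84 ± 0.22, adjusted p = 0.00294), over libraries that overlapped and followed the library number. Fen1 rose, from 53.3, 43, 70.3 and 53 CPM to 71.8, 76.5, 87.8 and 91.9 CPM, all higher (0.57 ± 0.14, adjusted p = 0.00109). The difference between the labels in this change was tested directly and passed for 0 of 35 genes by edgeR (3.33% of all genes), with 3 of 35 under an unadjusted p of 0.05, so the greater count under IL-1β is not shown to differ.

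**Figure D5:**
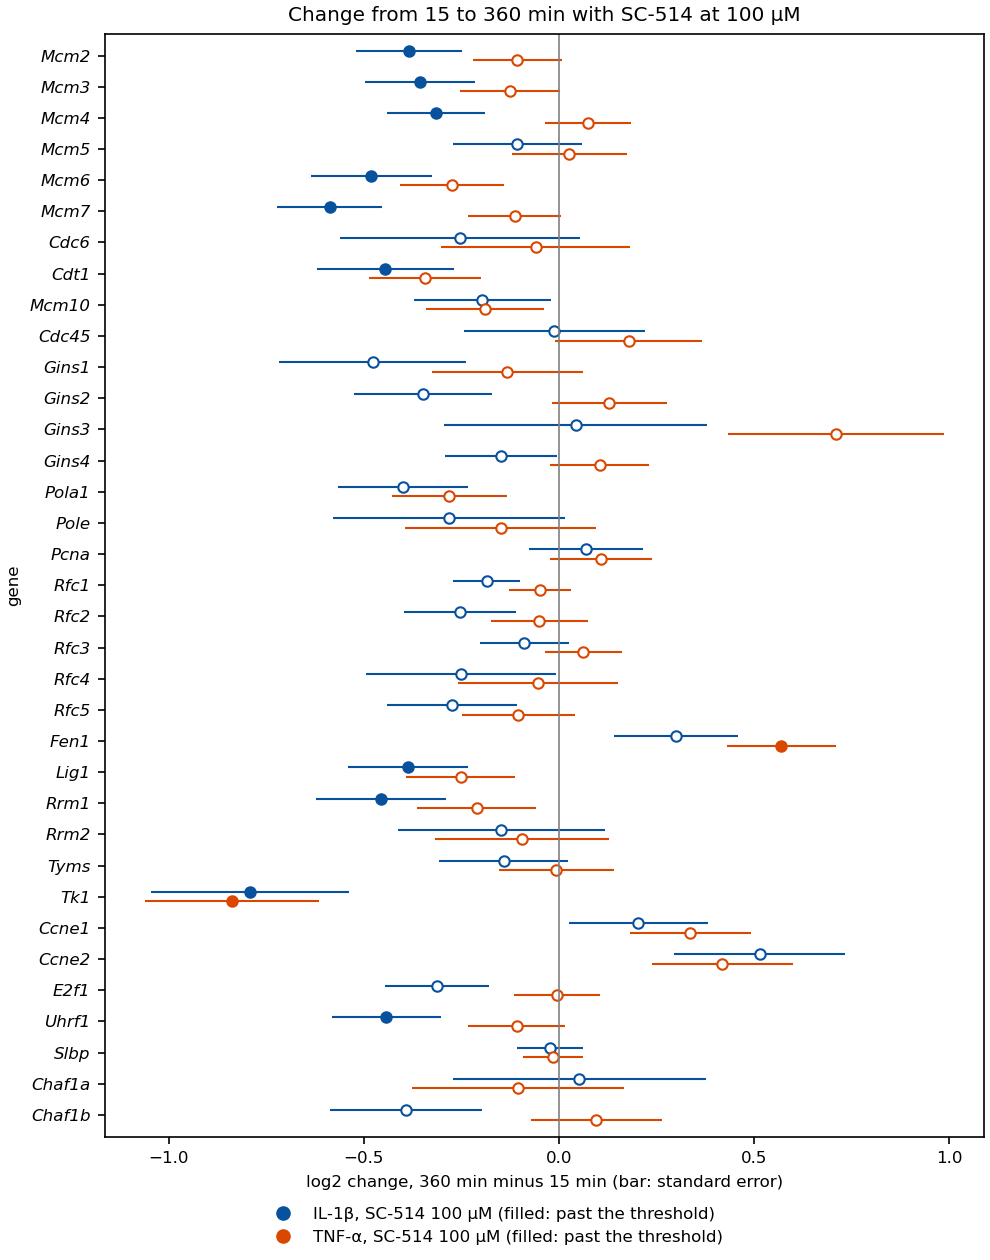
Log2 change from 15 to 360 min with SC-514 at 100 µM for each of the 35 genes (rows), blue for IL-1β and orange for TNF-α, with standard errors as bars; filled points have an adjusted p under 0.05. The filled blue points all lie left of 0, at 10 genes, and the filled orange points are Tk1 on the left and Fen1 on the right.

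Read at 360 min alone with 100 µM, the levels were lower with the IL-1β label than with TNF-α for 35 of 35 genes, with a median log2 difference of -0.26, beside 0.00 for all genes tested. The difference passed for 9 genes (15.6% of all genes, 5.61% in this direction): Mcm2, Mcm4, Mcm6, Mcm7, Gins2, Rfc1, Rfc3, E2f1 and Slbp. Mcm7 averaged 133 ± 15.4 CPM with IL-1β and 201 ± 15.1 CPM with TNF-α (SD, n = 4 each; -0.59 ± 0.13, adjusted p = 0.000301). Mcm2 averaged 69.1 ± 18.3 and 103 ± 3.77 CPM (-0.57 ± 0.13, adjusted p = 0.000408). Without the libraries numbered 1, 5 of 35 genes passed. The library set differs between the labels here too.

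Other genes of the same processes were followed as lists. Of 41 further replication factors tested, 5 rose and 0 fell with IL-1β alone at 360 min, where 12.3% of all genes rose and 9.4% fell, among them Top1, a topoisomerase (0.71 ± 0.07, adjusted p = 3.48e-15), and Dbf4, the activator of the Cdc7 kinase (0.50 ± 0.13, adjusted p = 0.00128). With TNF-α alone 1 rose and 0 fell, where 3.62% of all genes rose. With 100 µM against 0 µM, the counts at 360 min were 3 up and 1 down under IL-1β and 7 up and 0 down under TNF-α. Of all genes 13.9% rose and 15.7% fell under IL-1β, and 11.4% rose and 15.4% fell under TNF-α, which is the background for the lists that follow as well. Rpa1, a single-strand binding protein, was among those that rose under both labels (0.45 ± 0.14, adjusted p = 0.011, and 0.42 ± 0.13, adjusted p = 0.00882). Of 18 genes of nucleotide supply, 5 fell and 0 rose under IL-1β and 4 fell and 0 rose under TNF-α in those comparisons. Dctd, deoxycytidylate deaminase, fell in both (-0.47 ± 0.12, adjusted p = 0.000739, and -0.72 ± 0.11, adjusted p = 5.68e-09).

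Of 27 genes of G1 control tested, the counts with 100 µM at 360 min were 3 up and 4 down under IL-1β, and 4 up and 5 down under TNF-α, where 29.5% and 26.8% of all genes changed. Ccnd1, cyclin D1, fell in both (-0.47 ± 0.06, adjusted p = 4.78e-12, and -0.43 ± 0.06, adjusted p = 1.51e-10). Cdkn1b, the Cdk inhibitor p27, fell with IL-1β alone at 360 min (-0.90 ± 0.17, adjusted p = 1.04e-05) and was higher with 100 µM than without at that time (0.69 ± 0.18, adjusted p = 0.00133). Tfdp2, a dimer partner of E2F factors, did the same (-0.85 ± 0.26, adjusted p = 0.00977, and 1.24 ± 0.25, adjusted p = 2.81e-05).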

How the data were processed

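Gene counts of 3′ TagSeq libraries from 3T3 cells were used as the authors deposited them: raw counts for 22070 genes in 164 library columns, each shared by 4 sample records. The submitters' processing notes name Bowtie2 and GRCm38 (mm10). No source used here names the counting tool, the annotation or the use of strand. Columns were assigned to samples through the description labels. Counts were tested with edgeR 4.0.16 (R 4.3.3): TMM factors, genes passing filterByExpr (10766), 1 quasi-likelihood fit over 41 groups with 123 residual degrees of freedom, and Benjamini-Hochberg adjustment within each comparison over all genes tested, with a threshold of 0.05. An adjusted p in the text is from this fit. Where 5 times are tested together, an F test was used. CPM values were computed from the TMM-scaled library size. A value in a single library carries counting error, and as no source used here mentions molecular identifiers, reads need not be independent molecules. The procedure was tested on simulated data.

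The 35 genes and the other lists were chosen with earlier results of these data known. In each comparison the genes past the threshold were named, led by those whose libraries did not overlap and at most the 10 with the smallest p, and 11 genes were followed in every group without or with 100 µM SC-514. Of each other list up to 4 genes with the smallest adjusted p at 360 min could be named. The means over 10 groups, the changes from 15 to 360 min with 100 µM, the late against early change, and the comparisons of labels at 360 min alone were added after the data were seen. Alternatives were RLE size factors, no filter on low counts, DESeq2 1.42.0, omission of the 2 shallow libraries, omission of each library number, omission of 3 libraries that stand apart (number 1 of IL-1β with 100 µM at 120 and 360 min, number 4 of IL-1β alone at 30 min, chosen after the data were seen), the library number as a block, and fits on the compared groups only. The labels do not say that a library number marks a shared culture or day. The correlation of the deviations of same-numbered libraries exceeded 0.1 for all 4 numbers in 0 of 22 comparisons, so the numbers were not taken as pairs. That check spanned all genes tested. It cannot decide on the order by number that many of the 35 genes showed under TNF-α. The block fit held the same effect of number for both labels, and the main fit held none. The order by number therefore adds to the spread in the tests under TNF-α. Of 246 pairs of libraries within groups, 0 were identical.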

Additional observations from a re-analysis of the deposited data

Results flagged for a closer look

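In 53 groups of 4 libraries whose values are printed, 1 library stood apart from the other 3 by Dixon's criterion in 2, and chance alone flags about 1 group in 20. Rfc1 had 1 unstimulated library at 213 CPM, with a gap of 0.870 of the range of the group, and Ccne1 had 1 library at 23.9 CPM after 360 min of IL-1β, with a gap of 0.960. Both groups enter the comparisons in which these genes fell.

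The response to 100 µM SC-514 differed between the stimulus labels for Mcm2 and Rfc3, by a mean log2 difference of -0.37 and -0.36 (IL-1β minus TNF-α). Of all genes tested, 4.68% passed there, and stimulus and library set cannot be told apart. The call of Mcm2 was lost without the libraries numbered 1, 3 or 4, and that of Rfc3 without those numbered 4. That of Mcm2 was also lost without number 1 of IL-1β with 100 µM at 120 and 360 min. The response at 360 min differed from its mean at the 4 earlier times for Fen1 by 0.36, for Ccne1 by 0.55 and for Ccne2 by 0.54 on the log2 scale. The call of Fen1 was lost without the libraries numbered 3 or 4.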

How the results depend on the processing

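Of 2056 single-gene calls recomputed under alternatives, 1720 stayed past the threshold, 336 did not and 0 changed sign. Of 438 counts of the 35 genes, 368 stayed within 1.5 times. With the library number as a replicate block all 174 calls stayed, and counts moved in 3 comparisons: from 0 to 1 at 30 min of IL-1β alone, from 2 to 4 for 100 µM at 30 min of TNF-α, and from 0 to 2 for the labels over 5 times without SC-514. The block held the same effect of number for both labels, so its fit cannot settle the order by number seen under TNF-α. The numbers are not shown to pair the libraries.

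With RLE factors the counts for 100 µM became 4 at 30 min of IL-1β and 4, 8 and 11 at 30, 60 and 360 min of TNF-α. With DESeq2 they became 2 and 3 at 30 and 360 min of IL-1β, and 1 for the labels at 360 min without SC-514. Without the filter on low counts they became 4 at 30 min of IL-1β alone, 1 at 360 min of TNF-α alone, 7 and 14 for 25 and 50 µM under IL-1β, 2 for the labels over 5 times without SC-514, 6 for the difference of the 100 µM response between labels, 4 for the change from 15 to 360 min of TNF-α with 100 µM, 5 for the late against early response, and 1 for the difference of the late change between labels. In fits on the compared groups only they became 1 and 1 at 30 and 120 min of IL-1β alone, 7 for 360 against 15 min of IL-1β alone, 8 for 100 µM at 15 min of IL-1β, 7 and 15 for 25 and 50 µM under IL-1β, 4 and 3 for 100 µM at 30 and 60 min of TNF-α, 1 for the labels over 5 times without SC-514, 4 for the change from 15 to 360 min of TNF-α with 100 µM, and 1 for the difference of the late change between labels. Without number 1 of IL-1β with 100 µM at 120 and 360 min they became 1 for the difference of the 100 µM response between labels, 3 for the late change under IL-1β and 4 for the labels at 360 min with 100 µM. Without number 4 of IL-1β alone at 30 min they became 3 for 100 µM at 30 min of IL-1β.

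Leaving out each library number in turn gave 1 to 3 genes at 360 min of IL-1β alone and 0 to 1 at 120 min of TNF-α alone. For 100 µM it gave 1 to 3, 2 to 6, 2 to 4 and 3 to 4 at 15, 30, 60 and 360 min of IL-1β, and 2 to 4, 2 to 4 and 2 to 4 at 15, 30 and 60 min of TNF-α. It gave 2 to 4 for 25 µM under IL-1β, 2 in each case for 25 µM and 4 to 8 for 50 µM under TNF-α. It gave 0 to 1 for the labels over 5 times, 0 to 2 and 5 to 10 for the labels at 360 min with 0 and 100 µM, 0 to 3 for the difference of the 100 µM response, and 1 to 8 for the late change under IL-1β. These fits hold fewer libraries. For the other settings the cause was not tested. Values near 3 counts per library, 1.21 to 3.23 CPM, are limited by depth.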

Other observations

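Genes of mitosis, which act after the 35 genes in the cycle, were followed late after both stimuli. Of 31 such genes tested, 29 had a positive log2 change at 360 min of IL-1β alone, with a median of 0.41, and 31 of 31 did at 360 min of TNF-α alone, with a median of 0.42; all-gene medians were -0.01 and 0.00. Both comparisons use the same 4 unstimulated libraries. After IL-1β 6 rose and 0 fell (12.3% of all genes rose and 9.4% fell), among them Ube2c, a ubiquitin-conjugating enzyme of mitotic exit (0.81 ± 0.22, adjusted p = 0.00357), Aurka, a kinase of the spindle poles (0.79 ± 0.23, adjusted p = 0.00519), and Plk1, a mitotic kinase (0.69 ± 0.21, adjusted p = 0.00794), with all 4 libraries higher in each. After TNF-α 2 rose, Aurka and Ube2c, where 3.62% of all genes rose. With 100 µM SC-514 against 0 µM at 360 min, 4 of 31 fell and 0 rose under IL-1β, among them Top2a, the topoisomerase of chromosome condensation (-0.60 ± 0.19, adjusted p = 0.0101), and 1 rose and 0 fell under TNF-α. Of all genes 29.5% and 26.8% changed in these comparisons.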
